A study of Danio rerio with 8 samples.

Results

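Adrenomedullin peptides and their receptor genes were examined as a set of 8 genes among the 35197 rows of a whole-larva RNA-seq table. The set holds the peptide genes adm2a, adm2b, adma and admb, the receptor genes calcrla and calcrlb, and the accessory protein genes ramp1 and ramp2. Members were chosen by gene symbol; 7 of the 8 symbols matched exactly, and ramp1 is written RAMP1 in the table. The family was proposed because adm2a was among the genes higher in mutant larvae, so the values of adm2a are given as a description with no test, and the other 7 genes were taken by name. The 8 libraries came from single zebrafish larvae at 6 days post fertilization (dpf). In 4 larvae both copies of osgep carried the G177A allele (osgep G177A/G177A, called homozygotes here), and 4 were wild-type siblings. The homozygotes are zygotic mutants, osgep encodes the enzyme subunit of the KEOPS complex that modifies transfer RNA, and no clutch, tank or day was given for either group.

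Adrenomedullins are secreted peptides of the calcitonin family. They bind the calcitonin receptor-like receptor, a G protein-coupled receptor that reaches the cell surface and gains its ligand preference together with a receptor activity-modifying protein (RAMP), and they act largely through cyclic AMP. In mice, loss of adrenomedullin, of the receptor or of RAMP2 disrupts the growth of blood and lymphatic vessels, and adrenomedullin 2, also called intermedin, dilates vessels in mammals. Fish carry duplicated copies of several of these genes, here written with a final a or b.

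The library totals lay between 14398812 and 19052599 estimated counts, and all 8 members passed the filter on low counts that left 21447 rows for testing. osgep itself was lower in homozygotes, at 2.73 ± 0.852 CPM against 8.66 ± 2.67 CPM in wild-type larvae (CPM, reads scaled to a common TMM-adjusted library size; SD, n = 4 each). Across all rows, edgeR's quasi-likelihood test called 61 rows higher (0.284%) and 165 rows lower (0.769%) in homozygotes at a Benjamini-Hochberg adjusted p below 0.05. With libraries scaled by their totals alone, it called 0.41% higher and 0.163% lower, 0.574% in all. DESeq2 called 2.7% higher and 5.2% lower. The edgeR call of osgep (log2 fold change -1.66, adjusted p = 0.0187) was lost with library totals alone. It was also lost without homozygote 1, homozygote 3, wild-type larva 2 or wild-type larva 3, at an adjusted p of up to 0.0855 by edgeR. An unadjusted edgeR p under 0.05 was reached by 4773 of all tested rows (22.3%), the share against which such counts below are to be read. Wild-type larva 1 and homozygote 2 were the single libraries whose removal gave the most calls, 2130 and 1158 rows. Without that pair 3952 rows were called (10.5% of rows lower) in place of 226. A fit without this pair therefore favours calls. Markers of 14 groups of cell types were detected in these whole larvae, and only the globin gene hbba1 was at 0 in all 8 libraries. Of 12 neutrophil markers tested 6 were lower in homozygotes, with a summed level of 1225 to 2524 CPM in homozygotes and 1755 to 4441 CPM in wild-type larvae. Of 21 macrophage and microglia markers 10 were lower, at 1285 to 1797 CPM in homozygotes and 1704 to 2899 CPM in wild-type larvae in sum. Of 16 photoreceptor and lens markers 2 were lower, at 3493 to 6152 CPM in homozygotes and 6241 to 8561 CPM in wild-type larvae in sum. DESeq2 called 8 of the neutrophil, 16 of the macrophage and microglia and 7 of the photoreceptor and lens markers lower. In the same order, 12 of 12, 20 of 21 and 13 of 16 markers had a log2 fold change below 0. Of 9 erythrocyte markers edgeR called 0, with 8 at an unadjusted p under 0.05 and 3 called lower by DESeq2. All 9 had a log2 fold change below 0 (median -1.23), and their sum was 160 to 586 CPM in homozygotes and 553 to 1231 CPM in wild-type larvae. edgeR called 0 of 14 skeletal muscle and 0 of 12 hepatocyte markers, of which 13 and 11 lay below 0 (medians -0.67 and -0.37). DESeq2 called 2 of each lower, and 3 of 14 smooth muscle and pericyte markers. Of 12 heart markers 10 lay above 0, and 0 were called by either tool. The skeletal muscle sum was 53103 to 116852 CPM in homozygotes and 80040 to 131281 CPM in wild-type larvae. The part of these groups of markers in the values below was not tested.

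Homozygous larvae carried more adm2a transcript than any wild-type larva, while the other peptide genes did not pass the test. adm2a (ENSDARG00000045708), which encodes an adrenomedullin 2 peptide, had 8.49, 6.91, 8.30 and 10.1 CPM in homozygotes 1 to 4, against 2.52, 4.03, 2.55 and 2.86 CPM in wild-type larvae 1 to 4. The 4 homozygotes were all above the highest wild-type larva, which was larva 2. Over all tested rows, 5.5% had groups apart in this direction. The means were 8.45 ± 1.30 CPM in homozygotes and 2.99 ± 0.708 CPM in wild-type larvae (SD, n = 4 each), a 2.84-fold difference (log2 fold change 1.51, SE 0.23) that ranked adm2a 95th by log2 fold change among the tested rows. These values rest on 150, 122, 187 and 216 reads in homozygotes and 45, 49, 38 and 49 reads in wild-type larvae. The closest larvae were homozygote 2, with an exact Poisson 95% interval of 5.74 to 8.25 CPM, and wild-type larva 2, with 2.98 to 5.32 CPM. Those intervals cover counting error only. This difference led to the choice of the family. The call behind it was lost when wild-type larva 3 was left out (log2 fold change 1.44). In bulk RNA from whole larvae, more cells of a type and more RNA per cell cannot be told apart.

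Its closest paralog, adm2b (ENSDARG00000078875), which encodes a second adrenomedullin 2-type peptide, was the member with the fewest reads. It had 0.623, 0.397, 1.95 and 1.36 CPM in homozygotes 1 to 4, against 1.23, 0.657, 0.335 and 0.992 CPM in wild-type larvae 1 to 4. Homozygotes 3 and 4 were the highest within their group and wild-type larvae 1 and 4 within theirs, so that the groups overlapped across most of their range. The read counts were between 7 and 44 in homozygotes and between 5 and 22 in wild-type larvae. The log2 fold change was 0.42 (95% interval -0.74 to 1.59, adjusted p = 0.674 by edgeR), an interval that holds values below 0 as well as the 1.51 of adm2a. With these read counts and this spread between larvae, neither could be told apart for adm2b.

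adma (ENSDARG00000015263), for an adrenomedullin peptide, had 14.3, 12.4, 14.9 and 17.1 CPM in homozygotes 1 to 4, against 18.2, 13.1, 17.4 and 16.5 CPM in wild-type larvae 1 to 4. The groups overlapped, and the log2 fold change was -0.15 (95% interval -0.52 to 0.21, adjusted p = 0.622 by edgeR). With libraries scaled by their totals alone the sign turned (0.22), and that scaling put the median of all rows at 0.40, against 0.02 with TMM, so adma was below that median under both scalings.

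admb (ENSDARG00000069027), the paralog of adma, had 3.96, 7.59, 5.90 and 6.45 CPM in homozygotes 1 to 4, against 8.58, 9.20, 8.44 and 8.29 CPM in wild-type larvae 1 to 4. Each homozygote was below each wild-type larva; groups were apart in this direction in 4.95% of all tested rows. The wild-type larvae were close together, with a coefficient of variation of 4.63%, whereas the homozygotes had 25.4%. The fitted difference of -0.53 on the log2 scale (SE 0.21) did not pass the test, with an adjusted p of 0.171 by edgeR. Without homozygote 1, the lowest larva, it was -0.37.

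**Figure D1:**
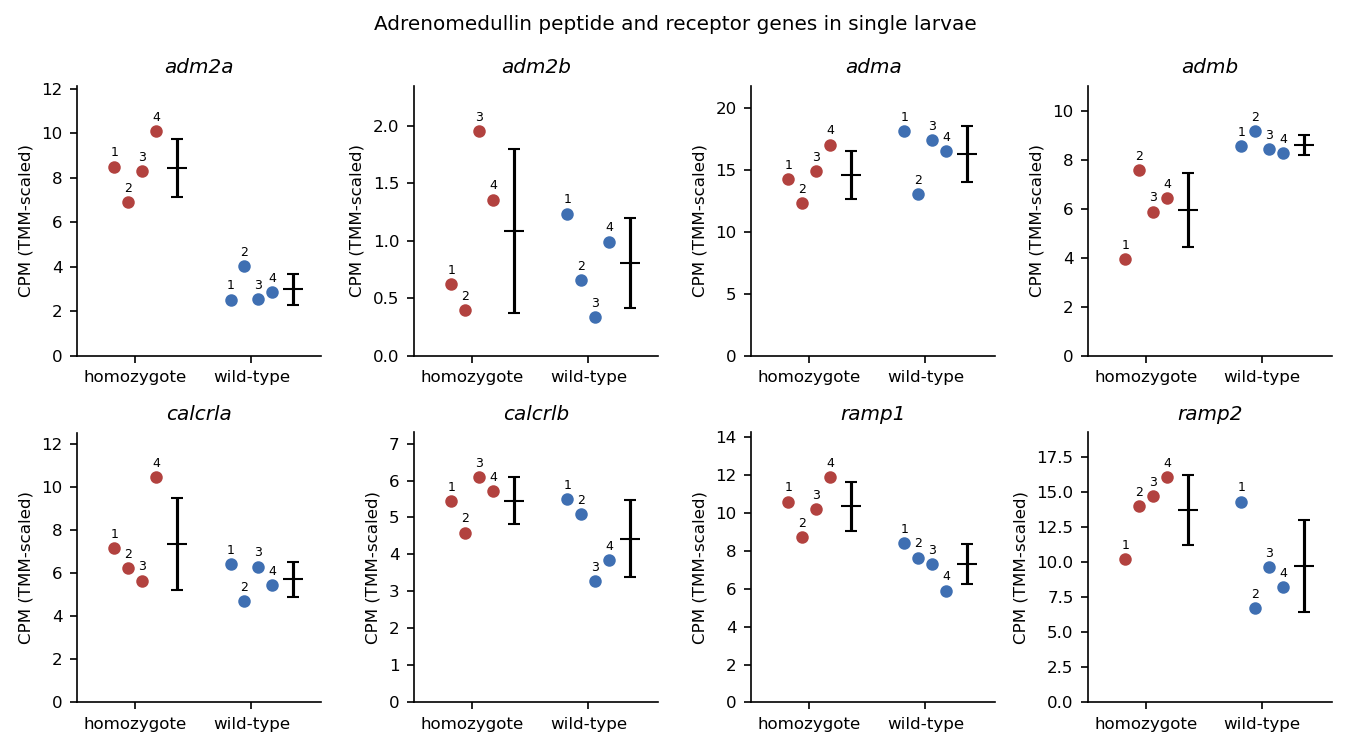
TMM-scaled CPM (y axis, from 0, a separate scale per gene) of the 8 genes in each larva, with larva numbers beside the points and the mean ± SD of 4 larvae as a bar. The homozygote points of adm2a, 6.91 to 10.1 CPM, lie above the wild-type points, 2.52 to 4.03 CPM. The groups of ramp1 and admb are also apart, while those of the other 5 genes overlap. Over all tested rows, groups were apart in 5.5% in the higher direction and 4.95% in the lower.

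The balance among the peptide genes differed between the groups while their sum did not stand apart. Summed over adm2a, adm2b, adma and admb, the level was 30.2 ± 3.67 CPM in homozygotes and 28.7 ± 1.46 CPM in wild-type larvae (SD, n = 4 each), and the ranges overlapped, at 27.3 to 35.0 CPM in homozygotes and 26.9 to 30.5 CPM in wild-type larvae. adm2a supplied 28.00 ± 2.497% of these reads in homozygotes and 10.51 ± 3.04% in wild-type larvae. The lowest homozygote share was 25.4% in homozygote 2 (Wilson 95% interval 21.7 to 29.4%), and the highest wild-type share was 14.9% in larva 2 (11.5 to 19.2%). The Wilson intervals cover counting error only and not the spread between larvae. The share of admb was 19.95 ± 5.64% in homozygotes and 30.1 ± 2.72% in wild-type larvae. That of adma was 48.6 ± 2.82% in homozygotes and 56.6 ± 5.53% in wild-type larvae. The adma ranges overlapped, at 45.3 to 52.2% in homozygotes and 48.5 to 60.6% in wild-type larvae. The 4 shares make up the whole in each larva, so a larger adm2a share leaves less for the other genes. Longer transcripts give more reads, and no transcript lengths were used, so a share is compared between larvae and not between genes. These shares use the values of adm2a and are a description.

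**Figure D2:**
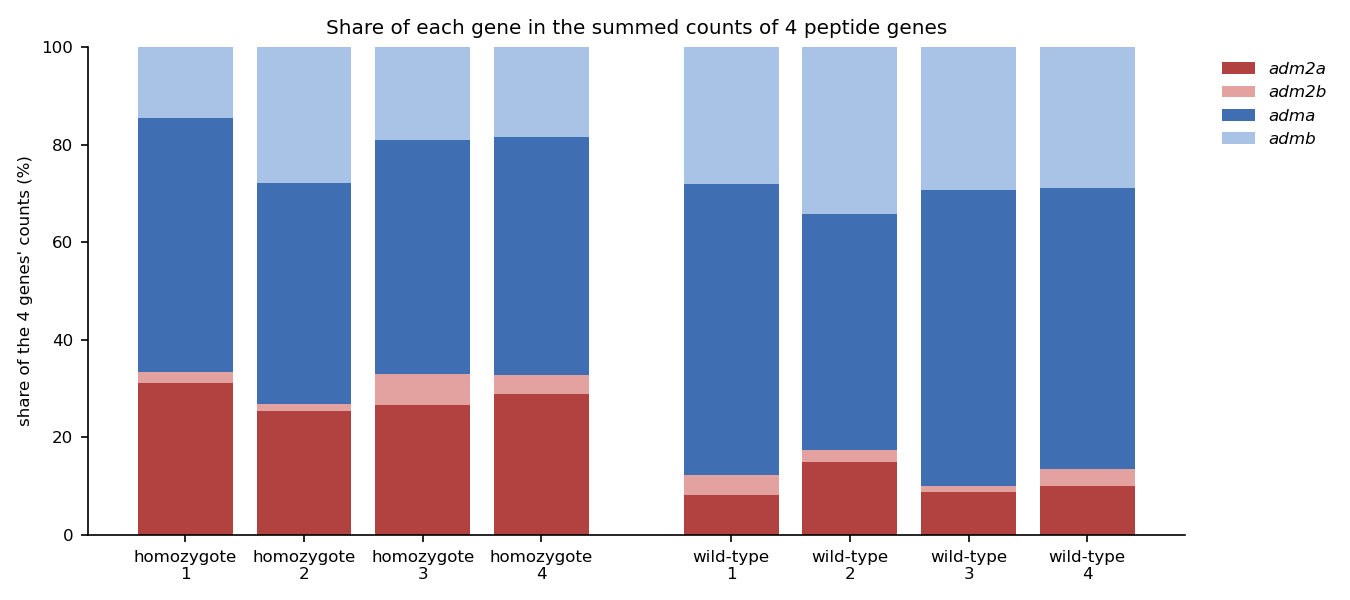
Share of each of 4 peptide genes in their summed read counts (y axis, %) in each larva (x axis). The adm2a segment takes 25.4 to 31.1% in the 4 homozygotes, above the 8.27 to 14.9% of the 4 wild-type larvae.

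Within each larva, the log2 ratio of adm2a reads to reads of another member does not depend on library scaling. The ratio to adma was -0.80 ± 0.05 in homozygotes and -2.46 ± 0.53 in wild-type larvae, a difference of 1.67. The ratio to admb was 0.53 ± 0.51 in homozygotes and -1.56 ± 0.26 in wild-type larvae, a difference of 2.08, the widest of the 7 ratios. For the receptor genes the difference was 1.18 with calcrla, 1.19 with calcrlb, 1.01 with ramp1 and 0.98 with ramp2. The groups were apart for the ratios to adma, admb, calcrla, calcrlb and ramp1 and overlapped for those to adm2b and ramp2. Because adm2a was chosen for its own difference, these ratios were not tested.

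No receptor or accessory gene passed the test. All 4 had a log2 fold change above 0, and the median of all tested rows was 0.02. calcrla (ENSDARG00000011473), for one copy of the calcitonin receptor-like receptor, had 7.13, 6.23, 5.64 and 10.4 CPM in homozygotes 1 to 4, against 6.39, 4.68, 6.30 and 5.43 CPM in wild-type larvae 1 to 4. Homozygote 4 was the highest larva, and homozygotes 2 and 3 lay inside the wild-type range. The log2 fold change was 0.37 (95% interval -0.13 to 0.87, adjusted p = 0.368 by edgeR). calcrlb (ENSDARG00000011571), the second copy, had 5.44, 4.59, 6.08 and 5.70 CPM in homozygotes 1 to 4, against 5.50, 5.09, 3.28 and 3.85 CPM in wild-type larvae 1 to 4. Here wild-type larvae 1 and 2 were within the homozygote range and larvae 3 and 4 below it. Its log2 fold change was 0.30 (95% interval -0.20 to 0.80, adjusted p = 0.460 by edgeR).

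ramp1 (ENSDARG00000056704), for the accessory protein that turns the receptor towards calcitonin gene-related peptide in mammals, had 10.6, 8.73, 10.21 and 11.9 CPM in homozygotes 1 to 4, against 8.41, 7.64, 7.30 and 5.90 CPM in wild-type larvae 1 to 4. Each homozygote was above each wild-type larva, by a narrow margin between homozygote 2 and wild-type larva 1; groups were apart in this direction in 5.5% of all tested rows. The log2 fold change of 0.50 (SE 0.19, adjusted p = 0.145 by edgeR) did not pass the test. Its counts were not whole numbers in every library, unlike those of the other 7 members, so some reads were divided with another gene and its values are uncertain.

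ramp2 (ENSDARG00000037895), for the accessory protein that makes an adrenomedullin receptor in mammals, had 10.19, 14.0, 14.7 and 16.0 CPM in homozygotes 1 to 4, against 14.3, 6.74, 9.65 and 8.23 CPM in wild-type larvae 1 to 4. Wild-type larva 1 lay among the homozygotes and the other 3 wild-type larvae below homozygote 1. The log2 fold change was 0.49 (95% interval -0.01 to 1.00, adjusted p = 0.236 by edgeR).

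Leaving out libraries moved the ramp genes across the threshold. Without wild-type larva 1, ramp2 was called higher (log2 fold change 0.76, adjusted p = 0.0419 by edgeR), in a fit that called 3.99% of rows higher, 5.77% lower and 9.76% in all. Without wild-type larva 1 and homozygote 2 together, ramp2 (0.75, adjusted p = 0.0437 by edgeR) and ramp1 (0.68, adjusted p = 0.0336) were called higher beside adm2a (1.54), in a fit that called 7.86% of rows higher. In that fit calcrla had 0.52, calcrlb 0.52, admb -0.64 and adma -0.0048, none of them called, and adm2b had 1.00 (adjusted p = 0.244). Over all 15 alternatives the adjusted p of ramp1 ranged from 0.0336 to 0.305 and that of ramp2 from 0.0419 to 0.472 by edgeR and DESeq2.

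**Figure D3:**
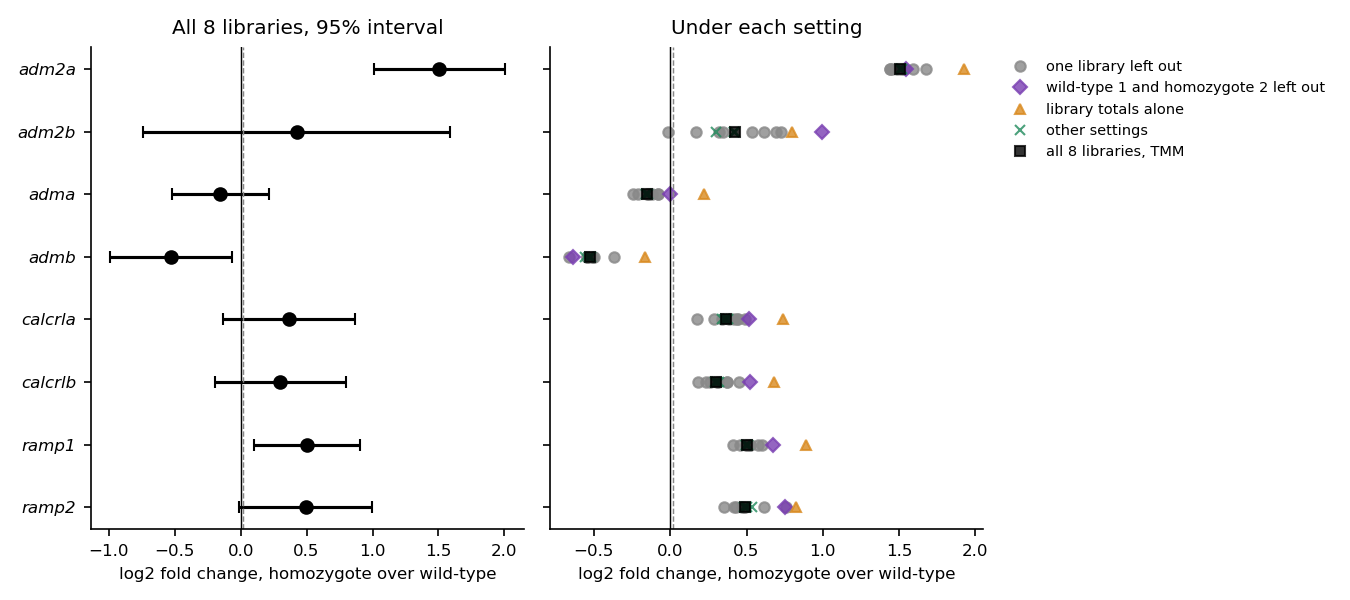
Log2 fold change of homozygote over wild-type larvae (x axis) for each gene, with its 95% interval from all 8 libraries at left and its value under each setting at right; solid and dashed lines mark 0 and the median of all tested rows, 0.02. The adm2a values lie between 1.44 and 1.92 under the alternatives, admb stays below 0, and library totals alone move each gene to the right.

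Among the 8 members, 1 was called higher and 0 lower, against 0.284% of all tested rows higher and 0.769% lower. That 1 is the gene that led to the choice. Their median log2 fold change was 0.39, against 0.02 over all tested rows, with 6 members above 0 and 2 below. The median and these counts include adm2a, so they are a description and were not tested. Within the groups the larvae kept no single order over the genes, but homozygote 4 was the highest homozygote for 5 members, homozygote 2 the lowest for 5, and wild-type larva 1 the highest wild-type larva for 6.

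The other genes listed with the calcitonin family did not pass the test. The list names 14 genes, of which 6 were found and tested: calca, calcr, crcp, gpr182, ackr3a and ackr3b. Among them calca is the only calcitonin family peptide gene and calcr the only calcitonin receptor gene. Of the 6, 0 were called by edgeR or DESeq2, with 1 at an unadjusted edgeR p under 0.05. That gene was calcr, for the calcitonin receptor that forms amylin receptors with RAMPs in mammals, picked out with its values in view. It had 3.91, 3.34, 4.48 and 3.41 CPM in homozygotes 1 to 4, against 3.14, 2.46, 1.88 and 1.81 CPM in wild-type larvae 1 to 4, so that the groups were apart, with a log2 fold change of 0.70 (SE 0.27, adjusted p = 0.151 by edgeR). Over all tested rows, groups were apart in this direction in 5.5%. calcr was called without wild-type larva 1 and homozygote 2, in a fit that called 7.86% of rows higher. calca, which encodes calcitonin and calcitonin gene-related peptide, had 8.95 ± 3.18 CPM in homozygotes and 11.1 ± 3.796 CPM in wild-type larvae (SD, n = 4 each). The decoy receptor gene ackr3b, whose mammalian counterpart binds adrenomedullin, was at 43.8 ± 3.06 CPM in homozygotes and 45.8 ± 6.12 CPM in wild-type larvae, with a log2 fold change of -0.06 (SE 0.15).

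Of 20 tested genes for peptide processing and breakdown, 0 were called by edgeR, with 6 at an unadjusted p under 0.05 (22.3% of all rows), and DESeq2 called 1 (7.89% of all rows). Their median log2 fold change was 0.23. pam, for the enzyme that amidates the carboxyl end these peptides need for activity, was at 108 ± 3.95 CPM in homozygotes and 109 ± 10.4 CPM in wild-type larvae (log2 fold change -0.02, SE 0.14). Of the 20 genes, 1 had groups apart in each direction, against 5.5% of all tested rows in the higher direction and 4.95% in the lower. The groups were apart for cpz, a carboxypeptidase gene, at 8.51 to 12.3 CPM in homozygotes against 3.29 to 7.91 CPM in wild-type larvae, which is the gene DESeq2 called. They were apart in the other direction for mmel1, a gene of the neprilysin peptidase family, at 1.38 to 2.27 CPM in homozygotes against 2.58 to 4.36 CPM in wild-type larvae. Both genes were picked out with their values in view. Of 47 genes of cyclic AMP signalling downstream of the receptor, 0 were called by edgeR, with 9 at an unadjusted p under 0.05, and DESeq2 called 1, the adenylyl cyclase gene adcy9. The median of that list was 0.08. Without wild-type larva 1 and homozygote 2, a fit that called 18.3% of all rows, 4 of the processing genes and 9 of the signalling genes were called.

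Adrenomedullin transcription responds to low oxygen in mammals. Of 49 tested genes of the hypoxia response, 0 were called by edgeR, with 13 at an unadjusted p under 0.05 (22.3% of all rows), and DESeq2 called 3 higher and 3 lower, where it called 7.89% of all rows. The list median was -0.04. Groups were apart for 3 of the 49 genes in the higher direction and 1 in the lower, against 5.5% and 4.95% of all tested rows. Both vascular endothelial growth factor A genes, picked out with their values in view, had groups apart: vegfaa at 11.2 to 15.9 CPM in homozygotes against 7.41 to 10.99 CPM in wild-type larvae, and vegfab at 9.41 to 11.2 CPM in homozygotes against 6.25 to 7.29 CPM in wild-type larvae. Their log2 fold changes were 0.59 (SE 0.19) for vegfaa and 0.63 (SE 0.17) for vegfab, with adjusted p = 0.112 and 0.0754 by edgeR. vegfab was among the 3 genes that DESeq2 called higher. In the gene order used below, vegfab lies between osgep and adm2a, as the 38th annotated gene from osgep. The oxygen-sensing factor gene hif1ab, also picked out, was at 115 to 131 CPM in homozygotes against 138 to 173 CPM in wild-type larvae. Without wild-type larva 1 and homozygote 2, 5 genes of the list were called higher and 3 lower, in a fit that called 7.86% of all rows higher and 10.5% lower.

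In human cells adrenomedullin 2 is among the genes switched on by ATF4, the transcription factor of the integrated stress response. Of 47 tested genes known as ATF4 targets or partners, 7 rose, 1 fell and 39 did not pass, against 1.05% of all rows called. DESeq2 called 12 of them higher and 6 lower, against 2.7% of all rows higher and 5.2% lower. Groups were apart for 16 of the genes in the higher direction and 4 in the lower, against 5.5% and 4.95% of all tested rows. Among the 6 that DESeq2 called lower was atf4a, a gene for ATF4 itself, picked out with its values in view, at 140 to 211 CPM in homozygotes against 216 to 317 CPM in wild-type larvae. Its edgeR log2 fold change was -0.66 (SE 0.19), which did not pass edgeR's test. The paralog atf4b, also picked out, went the other way. It was at 160 to 183 CPM in homozygotes against 133 to 155 CPM in wild-type larvae. The log2 fold change of atf4b was 0.28 (SE 0.15), called by neither tool. Earlier results of these data had shown several of these genes to differ, so the count is no independent evidence. The median of the list was 0.13. bcat1, for a branched-chain amino acid transaminase, had 22.3, 21.5, 21.3 and 21.5 CPM in homozygotes 1 to 4, against 9.87, 8.63, 9.45 and 9.46 CPM in wild-type larvae 1 to 4. Its groups were far apart relative to their spread (log2 fold change 1.21, SE 0.15). The amino acid transporter gene slc1a4 rose by 1.19 and the mitochondrial folate enzyme gene aldh1l2 by 1.56 on the log2 scale. As for ramp1, the counts of aldh1l2 were not whole numbers in every library, so its values are uncertain. The transcription factor gene cebpb had a log2 fold change of -1.43. The call of aldh1l2 was lost without homozygote 1 (adjusted p = 0.0516 by edgeR), and that of cebpb with library totals alone (0.0538). The number of genes called on this list ranged from 3 without homozygote 1 to 18 without homozygote 2, where 1.85% of all rows were called higher, 3.46% lower and 5.31% in all. It was 22 without wild-type larva 1 and homozygote 2.

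**Figure D4:**
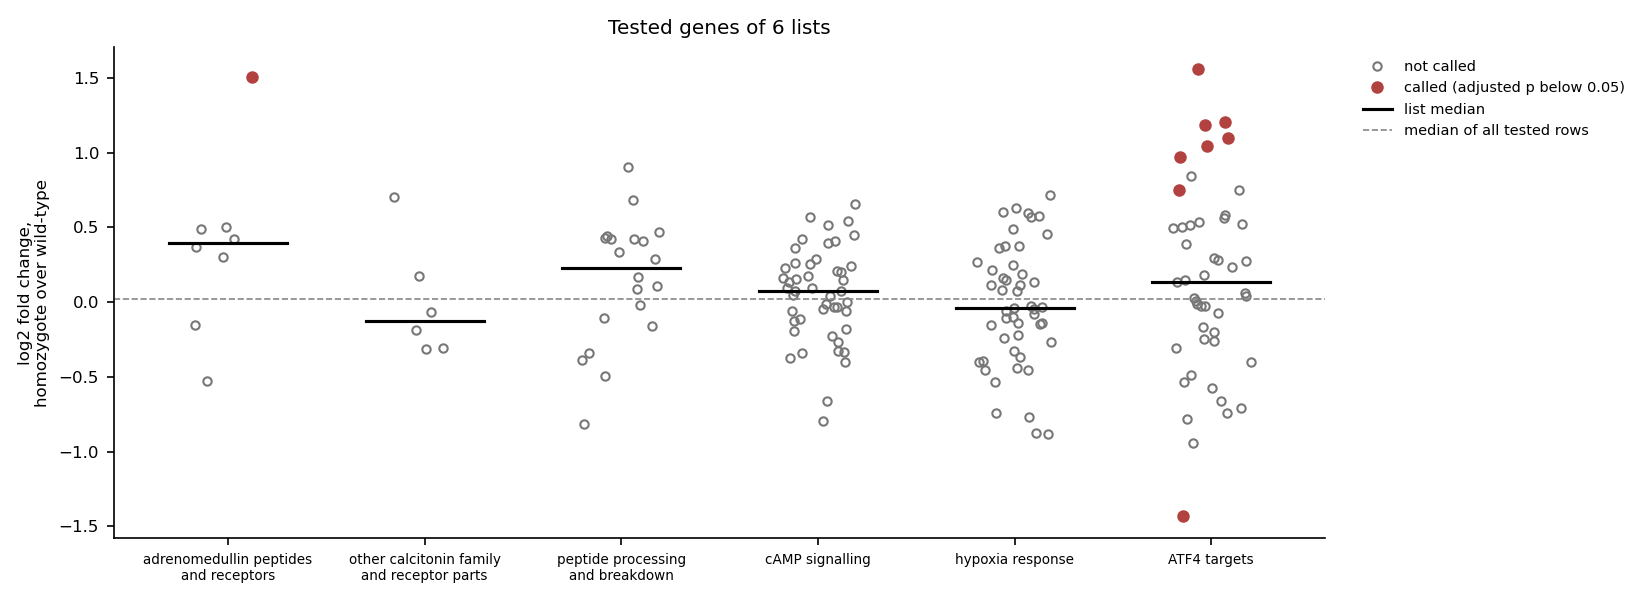
Log2 fold change of homozygote over wild-type larvae (y axis) for the tested genes of 6 lists (x axis); filled points were called at an adjusted p below 0.05, black bars are list medians and the dashed line is the median of all tested rows, 0.02. Filled points lie in the adrenomedullin set and in the ATF4 list, with 7 genes above and 1 below 0 in the latter. The filled point of the adrenomedullin set is adm2a, whose call led to the choice of that set, so it is a description.

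No vessel marker passed edgeR's test. Of 35 endothelial markers tested 0 were called, with 11 at an unadjusted p under 0.05 (22.3% of all rows) and 2 called by DESeq2 (7.89% of all rows), and the median log2 fold change was 0.04. Their summed level was 438 to 484 CPM in homozygotes and 435 to 474 CPM in wild-type larvae. Of 11 lymphatic markers 0 were called, with 2 at an unadjusted p under 0.05. DESeq2 called 1 of them higher, prox1a, and 1 lower, lyve1a. The median log2 fold change of the lymphatic list was 0.01, with 6 markers above 0 and 5 below. Its summed level was 66.1 to 89.9 CPM in homozygotes and 65.9 to 75.0 CPM in wild-type larvae. Of 21 neuroendocrine and endocrine markers 0 were called, with 4 at an unadjusted p under 0.05 and 1 called by DESeq2, at a median of 0.02. Groups were apart for 2 of the 35 endothelial markers, 1 in each direction. Over all tested rows they were apart in 5.5% in the higher direction and 4.95% in the lower. The arterial ligand gene efnb2a was at 26.6 to 40.5 CPM in homozygotes against 19.0 to 25.1 CPM in wild-type larvae (adjusted p = 0.0588 by edgeR). The transcription factor gene sox18 was at 5.98 to 7.81 CPM in homozygotes against 8.76 to 11.4 CPM in wild-type larvae (adjusted p = 0.177 by edgeR). Of the lymphatic markers, the hyaluronan receptor gene lyve1a had groups apart, at 2.04 to 3.74 CPM in homozygotes against 4.19 to 7.24 CPM in wild-type larvae (adjusted p = 0.0613 by edgeR). These 3 markers and prox1a were picked out with their values in view.

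adm2a lies on the chromosome of osgep, and none of the other 7 members does. In the gene order of the GRCz12tu assembly, which is not the build of the counts and from which no coordinates are taken, adm2a is the 179th annotated gene from osgep. Larvae chosen as homozygous for the osgep allele also tend to be homozygous for the chromosome segment that carries it, so an effect of the allele and one of other variants on that segment cannot be told apart in these larvae. Of 100 tested genes between osgep and adm2a, 1 was called, which was aldh1l2, the 140th gene from osgep; that is 1.0%, against 0.999% of the tested genes with a place on other chromosomes. Groups were apart for 8.0% of the genes between them, against 10.9% on other chromosomes. Within 20 genes on each side of adm2a 26 were tested and 0 were called by edgeR, with 3 at an unadjusted p under 0.05 and 2 called by DESeq2; their median was -0.05. The gene before it, fbxo18, had 14.0 CPM in homozygotes and 14.4 CPM in wild-type larvae on average (log2 fold change -0.04, SE 0.19). hsp90b1, for a chaperone of the endoplasmic reticulum and the second gene before it, had a log2 fold change of 0.29 (SE 0.21). Over the whole chromosome, with osgep and adm2a left out, 649 genes were tested. Of these, 2 were called higher, aldh1l2 and bcat1, and 4 lower, which is 0.924% in all.

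**Figure D5:**
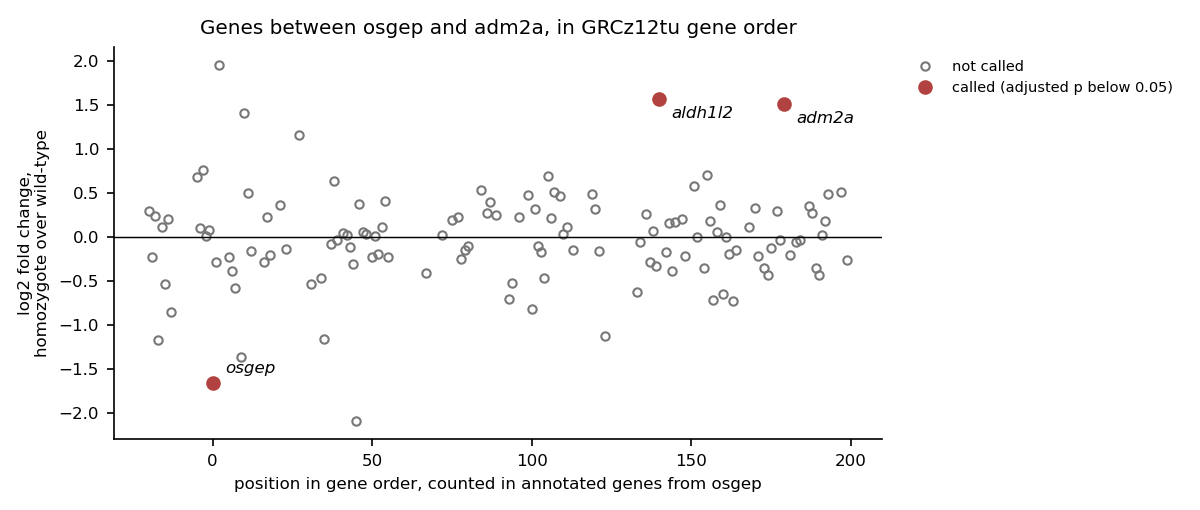
Log2 fold change of homozygote over wild-type larvae (y axis) of tested genes by their place in the gene order, counted in annotated genes from osgep towards adm2a (x axis). Filled points were called at an adjusted p below 0.05: osgep at -1.66, aldh1l2 at 1.56 and adm2a at 1.51, with no called gene beside adm2a.

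Of the 5 genes most like adm2a over the 8 larvae, by Pearson correlation of log2 CPM, 3 are given here: rltgr, for a RAMP-like protein of zebrafish (r = 0.98), grik1b, for a kainate receptor subunit (0.97), and idua, for a lysosomal iduronidase (0.97). Because adm2a separates the groups, genes that separate them rank high by this measure, and all 3 had groups apart. rltgr had 30.7, 27.0, 30.2 and 35.7 CPM in homozygotes 1 to 4, against 20.4, 24.9, 18.9 and 20.8 CPM in wild-type larvae 1 to 4. As for adm2a, homozygote 2 was the lowest homozygote, homozygote 4 the highest, and larva 2 the highest wild-type larva. After the group means were taken out, the correlation with adm2a was 0.96 for rltgr, 0.96 for idua and 0.82 for grik1b. The genes were picked as the most alike of 17234 ranked rows over these same larvae. Likeness within the groups was therefore part of the choice and is no separate evidence. None of the 3 passed edgeR's test, with adjusted p = 0.0854 for rltgr, 0.0931 for grik1b and 0.134 for idua. grik1b rests on few reads, at 1.86 ± 0.370 CPM in homozygotes and 0.854 ± 0.144 CPM in wild-type larvae (SD, n = 4 each).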

How the data were processed

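The authors deposited 1 matrix of estimated counts for 8 libraries, each from a single larva and made from total RNA after ribosomal RNA depletion, per the labels' protocols. Trimmomatic, STAR 2.7, RSEM and the build danRer11 are named in the submitters' processing notes. Annotation, settings and strand are not given in the sources used here. Counts were rounded, filtered with filterByExpr (minimum count 10) and TMM-scaled; 21447 of 35197 rows entered a robust quasi-likelihood fit on genotype alone (edgeR 4.0.16, R 4.3.3; Benjamini-Hochberg adjustment at 0.05 over all tested rows). CPM use scaled library sizes. SE came from fold change and F statistic, and 95% intervals are not adjusted for the number of rows. p-values reflect larva-to-larva spread only. Members and gene lists were chosen with earlier results of these data known. Named are the 8 members, up to 4 called genes per pathway list with the smallest p, and the 5 genes most like adm2a (Pearson, log2 CPM, prior count 2), of which 2 are not reported here; others are identified as picked out. Alternatives were RLE factors, library totals, no filter, a minimum count of 50, DESeq2 1.42.0, a replicate block and left-out libraries. The steps were tested on simulated data. Columns of other samples numbered 0. Sequences were not used here.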

Additional observations from a re-analysis of the deposited data

How the results depend on the processing

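The number of rows called over all genes was 226, and it was 123 with library totals alone (88 higher and 35 lower), 349 with no filter, 1693 by DESeq2, 3952 without wild-type larva 1 and homozygote 2, and 38 (without wild-type larva 3) to 2130 (without wild-type larva 1) with a single library left out. Among the members 1 was called; 3 were called without that pair, and 0 to 2 with a single library left out, the 0 without wild-type larva 3 and the 2 without wild-type larva 1. Of the other genes listed with the calcitonin family, 1 was called without the pair. Peptide processing genes called were 1 by DESeq2, 4 without the pair and 0 to 3 with a single library left out. Signalling genes were 1, 9 and 0 to 3, hypoxia genes 6, 8 and 0 to 5, and ATF4 genes 18, 22 and 3 to 18 under the same settings. The sign of adma turned with library totals alone (0.22) and that of adm2b without homozygote 3 (-0.018; up to 0.72 with another single library left out); no other member changed sign under any of the settings. The cause of the other shifts was not tested. Same-numbered larvae did not vary together (correlations of deviations -0.107 to 0.0519), so the replicate numbers were not taken as pairs; with a replicate block 333 rows were called and the adm2a value was 1.51 on the log2 scale. Depth limits adm2b most, at 5 to 44 reads a library.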

Other observations

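The proportion of the duplicated receptor genes overlapped between the groups. The ratio of calcrla to calcrlb reads was 1.36 ± 0.369 in homozygotes and 1.35 ± 0.427 in wild-type larvae (SD, n = 4 each). It lay between 0.927 and 1.83 in homozygotes and between 0.919 and 1.92 in wild-type larvae. The ratio of ramp2 to ramp1 reads was 1.34 ± 0.272 in homozygotes and 1.32 ± 0.338 in wild-type larvae, and wild-type larvae 1 and 2 held its highest and lowest values, 1.70 and 0.882. Neither ratio was tested.

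Spread within a group differed between members. The coefficient of variation of adm2b was 65.7% in homozygotes and 48.8% in wild-type larvae, that of adma 13.3% in homozygotes and 13.9% in wild-type larvae, and that of ramp2 18.3% in homozygotes and 33.6% in wild-type larvae.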
